A study of Mus musculus with 8 samples.

Results

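The 30 genes described here mark microglia, the resident macrophages of the brain. They were chosen by name, as known microglia genes, and all 30 were found among the 38553 genes of the deposited expression table, in which 28 of them had enough fragments and a high enough level to be compared between regions. RNA-Seq was used to compare dorsal with ventral medial entorhinal cortex (MEC), a cortical area that contains grid cells. Tissue came from 13 male mice of the strain C57BL/6JolaHsd at 8 weeks of age. From the right hemisphere of each animal, the dorsal and ventral parts of the MEC were dissected out of a sagittal slice of 400 µm, and tissue of 3 or 4 mice was pooled by region into 4 dorsal and 4 ventral libraries. Each library held bulk tissue from all cell types, so a lower level of a microglial gene can mean fewer microglia or less RNA per microglial cell, and these cannot be told apart. Replicate error in these data is therefore the variation among pools of mice.

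Microglia survey the tissue with motile processes, remove debris and synapses, and depend on the receptor CSF1R and its ligands for survival. In the undisturbed brain they carry a characteristic set of purinergic, chemokine and sialic acid receptors that is often called homeostatic. They are also the main source in brain of C1q, the protein that starts the classical complement cascade, and are rich in lysosomal proteins that digest what they engulf. The members were grouped accordingly into 10 homeostatic surface and secreted proteins, 3 genes of growth factor signaling and transcription, 4 complement genes, 4 lysosomal and phagocytic genes, 6 innate receptors and their adaptors, and 3 general leukocyte and myeloid genes.

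The region of a library rests on the deposited comparison, and for 4 of the 8 libraries it differs from the letter in the column header of the expression table. The columns headed D1, V1, D2 and V2 average to the deposited dorsal means in 38546 of 38553 genes, and those headed D3, V3, D4 and V4 to the ventral means in 38544. Regions are given below by these means, and each library is also named by its header. Only D1 and D2 (dorsal) and V3 and V4 (ventral) bear the same region in both sources. The count of members with the higher ventral mean and the median log2 ratio over all members are given under all 3 readings. Medians of the role groups are given under some of these readings. Other values follow the deposited means unless stated. Under the header regions limma called 1 of the 13674 genes tested, and in the 4 libraries alone 0 of 13661, so none of the limma calls named below was made under either. Each deposited region holds 2 libraries headed D and 2 headed V, so the header grouping mixes the deposited regions evenly. The 4 libraries leave only 2 per region. The lack of calls under these readings therefore does not test the limma calls named below. The libraries held 10780902 to 15359782 fragments in genes, and correlations of log2 expression across genes were 0.971 to 0.985 between libraries of the same region and 0.965 to 0.982 between regions. Genes of oligodendrocytes, the myelinating cells, were higher in dorsal libraries (6 of 6 called by limma, at an adjusted p under 0.05 and a difference of at least 20%), with a summed level of 808 to 1074 FPKM in dorsal and 447 to 586 FPKM in ventral libraries. Their median log2 ratio of ventral to dorsal was -0.86, but 0.09 under the header regions and -0.75 in the 4 libraries. Of 5 genes of the leptomeninges, the membranes on the brain surface, 2 were called higher in ventral libraries and none dorsal, with a summed level of 66.04 to 71.61 against 107 to 122 FPKM. FPKM scales fragments by transcript length and by the mapped fragments of the library. Levels of different genes can thus be set side by side. The deposited value of a gene sums the estimated levels of all its transcripts. It is not the fragment count over a fixed length, so ratios in FPKM and in fragments can differ. The cDNA was amplified before sequencing, and how evenly this treated single genes was not tested, so levels and ratios between genes are approximate.

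To show the DNA in front of some of these genes, the 250 bases upstream of the annotated start were read from a set of RefSeq promoters (GRCm38.p6). The set used here held 23 of the 30 members, which does not mean that RefSeq lacks the others. The core letters GAGGAA, a match to the binding sequence of the myeloid transcription factor PU.1, were searched on both strands (reverse complement TTCCTC). They occurred in 14 of these 23 genes (60.9%) and in 25.9% of all 27025 genes with an entry. The longer form GAGGAAGT, which contains the core, was found in *C1qc* alone (2.79% of all genes), and the composite PU.1 and IRF element, GGAA and GAAA separated by 2 bases, in 0 of 23 (2.68% of all genes). The sequences below are from the member with the highest level (*Ctss*), the highest complement gene (*C1qb*), the receptor subunit with 2 core matches (*Itgam*), the tested member with the largest SD between libraries of a region on log2(FPKM + 1) (*Cd68*) and the tested member with the largest ratio of ventral to dorsal (*Olfml3*, no match). Capitals mark a core match on either strand. These matches describe the letters only.

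*Ctss*, chr3:95526536-95526785, plus strand: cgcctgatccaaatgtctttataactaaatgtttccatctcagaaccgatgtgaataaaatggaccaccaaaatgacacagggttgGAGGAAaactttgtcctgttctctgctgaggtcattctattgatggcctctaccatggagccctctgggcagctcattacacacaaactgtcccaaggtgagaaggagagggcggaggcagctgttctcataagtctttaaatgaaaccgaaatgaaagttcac
*C1qb*, chr4:136886201-136886450, minus strand: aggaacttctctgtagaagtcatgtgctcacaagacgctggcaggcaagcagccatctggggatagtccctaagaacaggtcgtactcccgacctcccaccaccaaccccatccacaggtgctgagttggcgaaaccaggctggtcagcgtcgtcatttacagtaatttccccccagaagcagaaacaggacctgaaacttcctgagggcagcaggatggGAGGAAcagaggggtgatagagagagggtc
*Itgam*, chr7:128062390-128062639, plus strand: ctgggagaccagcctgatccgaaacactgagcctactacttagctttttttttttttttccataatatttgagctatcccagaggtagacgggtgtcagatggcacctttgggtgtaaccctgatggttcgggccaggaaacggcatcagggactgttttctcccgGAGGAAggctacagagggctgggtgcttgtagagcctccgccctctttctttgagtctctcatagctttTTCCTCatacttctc
*Cd68*, chr11:69666171-69666420, minus strand: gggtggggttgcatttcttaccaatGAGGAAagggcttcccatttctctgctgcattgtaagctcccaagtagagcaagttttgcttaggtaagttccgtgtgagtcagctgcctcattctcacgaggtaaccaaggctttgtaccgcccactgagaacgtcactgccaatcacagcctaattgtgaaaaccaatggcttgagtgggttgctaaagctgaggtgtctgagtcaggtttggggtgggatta
*Olfml3*, chr3:103738002-103738251, minus strand: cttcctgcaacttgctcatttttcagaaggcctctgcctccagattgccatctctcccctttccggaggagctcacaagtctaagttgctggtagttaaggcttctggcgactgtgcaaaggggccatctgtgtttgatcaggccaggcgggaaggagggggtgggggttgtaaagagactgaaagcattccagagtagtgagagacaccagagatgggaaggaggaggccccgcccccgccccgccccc

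All 30 members were above 0 in every library. Mean levels over the 8 libraries ran from 0.366 FPKM for *Cd14* to 31.0 FPKM for *Ctss*, and 9 members reached 10 FPKM. The median over the members was 4.97 FPKM, beside 7.98 FPKM over the 13674 genes tested. *Ctss*, the lysosomal protease cathepsin S, lay between 27.8 and 34.5 FPKM, so that its lowest library was above the highest library of every other member. The next in order were *C1qb* (17.3 FPKM), *Laptm5* (16.9 FPKM) and *P2ry12* (15.5 FPKM), whose ranges over libraries overlapped. *Cd14* and *Irf8*, at means of 0.366 and 0.919 FPKM, were the 2 members under 1 FPKM and were not tested.

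**Figure D1:**
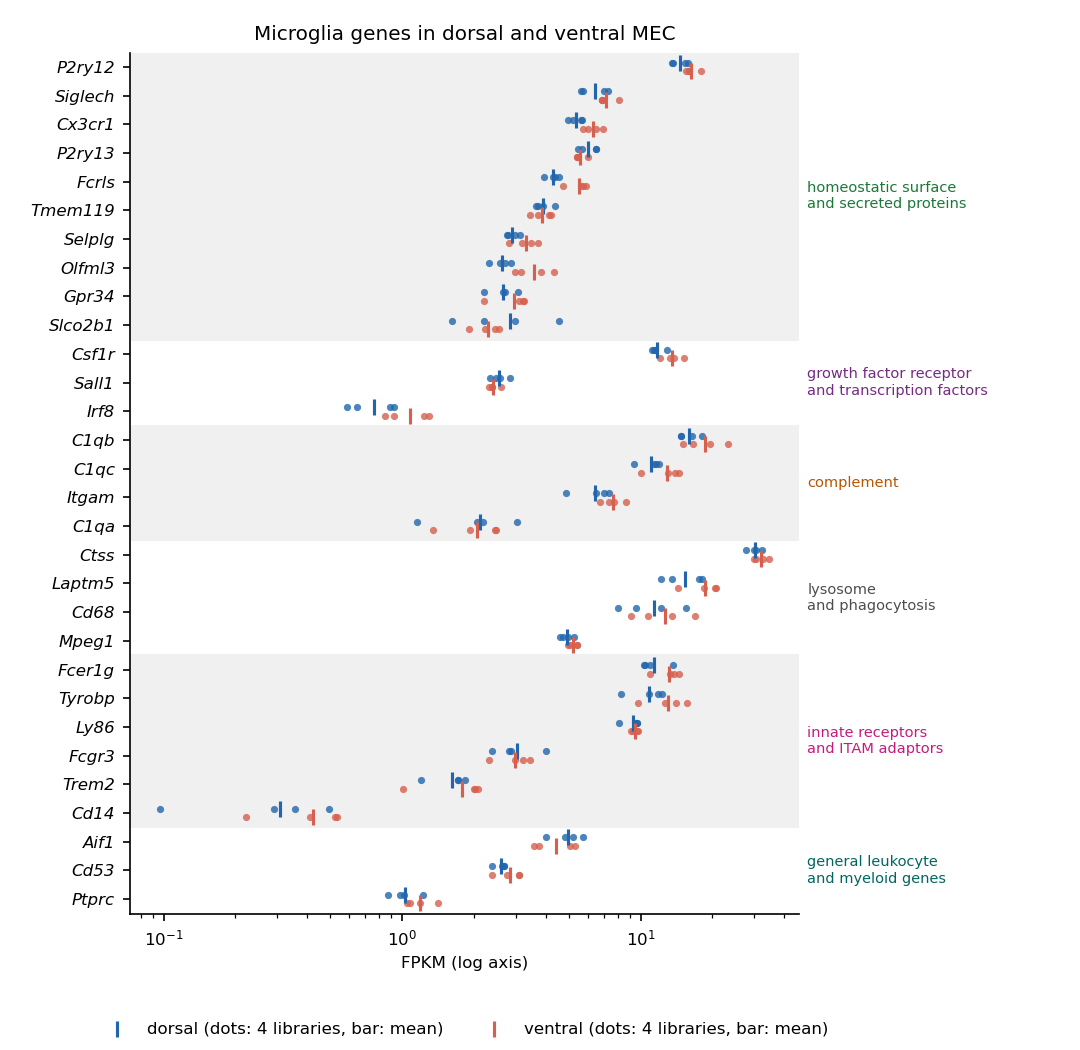
Level of each microglia gene in FPKM (log axis), with a point for each of the 4 dorsal and 4 ventral libraries and members ordered within their role groups. *Ctss* stands highest, at 27.8 to 34.5 FPKM, and for most members the dorsal and ventral points interleave.

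No microglia gene passed the test between dorsal and ventral MEC, and most had a slightly higher mean in ventral libraries. Of the 28 members tested, 21 (75.0%) had the higher mean in ventral libraries, beside 48.8% of all genes tested. The median log2 ratio, taken as the ventral mean FPKM over the dorsal mean, was 0.16 over the members and -0.01 over all genes. No member was called by limma after Benjamini-Hochberg adjustment over all genes tested (0 of 28, with a background of 1.45% of genes called higher in ventral and 2.15% in dorsal). At an unadjusted p under 0.05, 4 members passed (*Fcrls*, *Olfml3*, *Cx3cr1* and *Csf1r*), all with the higher mean in ventral libraries, where 7.31% of all genes did so in that direction. On the estimated fragment counts, edgeR called 2 members higher in ventral, *Fcrls* and *Olfml3* (background 2.97% ventral and 3.44% dorsal), and DESeq2 called *Olfml3* alone (background 2.97% and 3.57%). Every ventral library was above every dorsal library in 3 members (10.7%), again *Fcrls*, *Olfml3* and *Cx3cr1*, where the background was 4.95%, and the reverse was seen in 0 members (background 6.17%). The largest differences that the 95% intervals of limma allowed for any member were 0.61 higher in ventral (*Cd68*) and -0.62, higher in dorsal (*Slco2b1*), on log2(FPKM + 1).

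**Figure D2:**
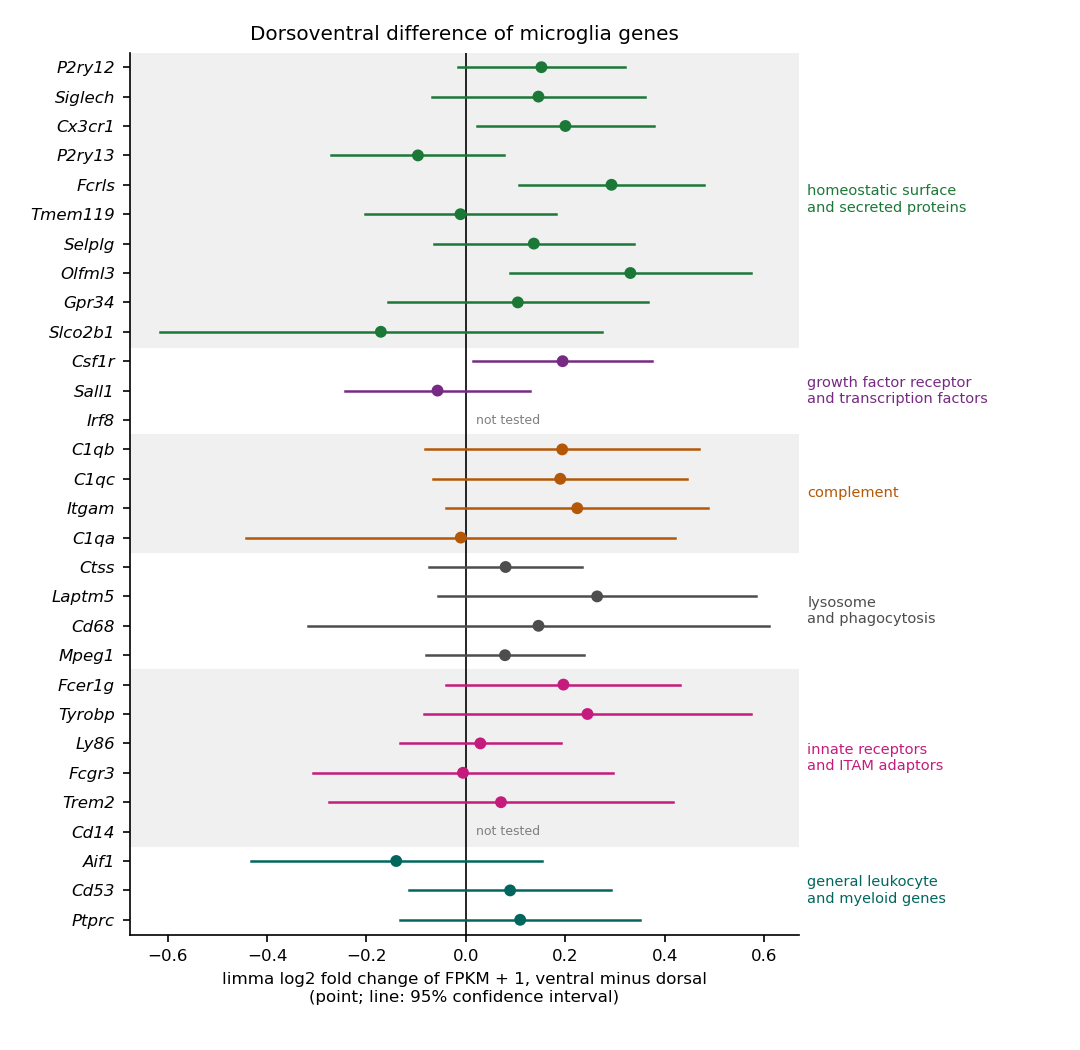
Difference between ventral and dorsal libraries for each of the 28 members tested, on log2(FPKM + 1), with the 95% interval of limma. Most points lie to the ventral side of 0, and the intervals of 4 members (*Fcrls*, *Olfml3*, *Cx3cr1* and *Csf1r*) do not include 0.

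The lean to ventral depended on which libraries were read as dorsal. In the 4 libraries whose header and deposited region are the same, 17 of 29 members had the higher mean in ventral, with a median log2 ratio of 0.04. The 29 include *Irf8* (0.48), which reached the level for testing in these libraries only. Of the 28 members tested in all libraries, 16 had the higher mean in ventral there. In the 4 libraries, the regions did not overlap for 8 members higher in ventral (*Irf8* among them) and 2 higher in dorsal. Of all genes, 20.3% and 20.7% did so. Of the homeostatic genes in these 4 libraries, *Gpr34* (0.30), *Fcrls* (0.27), *Siglech* (0.27), *P2ry12* (0.20), *Olfml3* (0.17), *Cx3cr1* (0.15), *Selplg* (0.10) and *Tmem119* (0.01) had positive log2 ratios. Those of *P2ry13* (-0.06) and *Slco2b1* (-0.12) were negative. When all 8 libraries were assigned by their headers, 10 of 28 members had the higher ventral mean and the median log2 ratio was -0.09. The share of the fragments in genes that came from the 30 members was 0.0394% to 0.0456% in dorsal and 0.0467% to 0.0533% in ventral libraries. These shares did not overlap between regions, nor did they within the 4 libraries of undisputed region, but they overlapped under the headers. No background was computed for such sums over sets of genes. For single genes, ventral lay above dorsal without overlap in 4.95% of all genes tested, and in 20.3% within the 4 libraries. The summed FPKM of the members, 196 to 224 in dorsal and 212 to 250 in ventral libraries, overlapped.

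Among the homeostatic genes, 7 of 10 had the higher mean in ventral libraries, and their median log2 ratio was 0.16. *Fcrls*, an Fc receptor-like scavenger receptor (ENSMUSG00000015852, chr3:87250758-87263738 on GRCm38), measured 4.29, 4.54, 4.39 and 3.95 FPKM in the dorsal libraries D1, V1, D2 and V2, and 5.88, 4.70, 5.64 and 5.75 FPKM in the ventral libraries D3, V3, D4 and V4. All ventral values were above all dorsal ones, and V3 was the ventral library nearest to them. The means were 4.29 ± 0.250 and 5.49 ± 0.534 FPKM (SD, n = 4), a difference by limma of 0.29 ± 0.08 (SE) on log2(FPKM + 1) with an adjusted p of 0.0958. With a library left out, the adjusted p of *Fcrls* by limma ran from 0.0395 (without V3) to 0.231 (without D3), and with all libraries it was 0.0494 by edgeR and 0.0593 by DESeq2. Its log2 ratio was 0.36, 0.27 in the 4 libraries of undisputed region and -0.09 under the header regions.

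*Olfml3* encodes a secreted olfactomedin-like protein (ENSMUSG00000027848). Its dorsal libraries held 2.87, 2.70, 2.58 and 2.31 FPKM, and its ventral libraries 3.82, 3.16, 4.32 and 2.99 FPKM. The regions were separated by a small gap, from 2.87 to 2.99 FPKM, and the ventral libraries headed D were higher than those headed V. The log2 ratio of means was 0.45, the largest of the 28 members tested, with an adjusted p of 0.152 by limma, 0.0437 by edgeR and 0.0319 by DESeq2. It was 0.17 in the 4 libraries of undisputed region and -0.29 under the header regions.

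*Cx3cr1*, the receptor for the neuronal chemokine fractalkine (ENSMUSG00000052336), measured 5.62, 5.68, 4.94 and 5.18 FPKM in dorsal and 6.52, 5.99, 6.96 and 5.75 FPKM in ventral libraries. The lowest ventral library stood just above the highest dorsal library. The log2 ratio was 0.24 (limma adjusted p = 0.249). Its ligand *Cx3cl1*, a gene outside the members, was at 76.9 ± 8.18 FPKM in dorsal and 70.8 ± 8.71 FPKM in ventral libraries (SD, n = 4; limma adjusted p = 0.640).

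The purinergic receptors, which steer microglial processes toward released nucleotides, did not share a direction. *P2ry12*, the highest homeostatic gene, measured 15.9, 13.6, 13.6 and 15.4 FPKM in dorsal and 15.5, 15.9, 15.96 and 17.97 FPKM in ventral libraries, which overlapped (log2 ratio 0.16, limma adjusted p = 0.369). Its neighbour *P2ry13* had a lower mean in ventral (5.58 ± 0.279 FPKM) than in dorsal libraries (6.04 ± 0.543 FPKM; SD, n = 4; limma adjusted p = 0.625). On the annotation, *P2ry12* shares exon bases with *Med12l* on the other strand and *P2ry13* lies within that gene. The members *Csf1r* and *Slco2b1* also share exon bases with a gene on the other strand (*Hmgxb3* and *Gm15635*). Whether fragments were counted by strand is not stated.

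The log2 ratios of the sialic acid-binding lectin *Siglech* (0.16), the selectin ligand *Selplg* (0.19) and the lysophosphatidylserine receptor *Gpr34* (0.15, a gene lying within *Cask*) were small and those libraries overlapped between regions. *Tmem119*, a transmembrane protein used to tell microglia from other macrophages, was at 3.90 ± 0.325 FPKM in dorsal and 3.87 ± 0.358 FPKM in ventral libraries (SD, n = 4). *Slco2b1*, an organic anion transporter with the lowest mean of the group, measured 2.96, 4.56, 2.21 and 1.62 FPKM in dorsal and 2.46, 2.23, 1.91 and 2.54 FPKM in ventral libraries. The dorsal libraries held both its highest value (V1) and its lowest (V2). Its log2 ratio of -0.31 was the largest toward dorsal (limma adjusted p = 0.752), became 0.01 without V1, and was 0.02 by edgeR on fragments.

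*Csf1r*, the receptor on which microglia depend, measured 11.3, 11.5, 12.9 and 11.2 FPKM in dorsal and 13.8, 13.3, 15.3 and 12.1 FPKM in ventral libraries. Ventral V4 lay below dorsal D2, and the other ventral libraries were above all dorsal ones (log2 ratio 0.21, limma adjusted p = 0.274). Its ligands, *Il34* and *Csf1*, had log2 ratios of -0.09 and 0.13, and neither was called. The transcription factor *Sall1*, which maintains microglial identity, had means of 2.55 ± 0.206 and 2.41 ± 0.121 FPKM (SD, n = 4) in dorsal and ventral libraries. *Irf8*, a factor needed for myeloid development, lay at 0.925, 0.646, 0.891 and 0.586 FPKM in dorsal and 0.923, 1.29, 0.850 and 1.24 FPKM in ventral libraries, with 23 to 52 fragments in each library.

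The complement genes had a median log2 ratio of 0.22, and 3 of 4 had the higher mean in ventral libraries. *C1qb*, encoding the B chain of C1q, measured 16.5, 14.7, 18.1 and 14.8 FPKM in dorsal and 19.6, 15.1, 23.2 and 16.6 FPKM in ventral libraries. The 2 ventral libraries headed D were above all others, and the 2 headed V lay within the dorsal range. The adjacent gene *C1qc*, the C chain, had a similar order of libraries, at 11.6, 9.42, 11.99 and 11.4 FPKM in dorsal and 13.9, 10, 14.5 and 13.0 FPKM in ventral libraries. By limma, the adjusted p was 0.512 for *C1qb* and 0.482 for *C1qc*.

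The 3 chains of C1q assemble in equal numbers, but the deposited levels of their genes were unequal. *C1qb* was 8.32-fold and *C1qc* 5.75-fold above *C1qa*, the A chain. The ratio of *C1qb* to *C1qc* was steady, from 1.28 to 1.61 over the libraries, whereas that of *C1qb* to *C1qa* ran from 5.93 to 12.8. *C1qa* measured 2.05, 2.19, 3.05 and 1.16 FPKM in dorsal and 2.45, 1.35, 1.93 and 2.48 FPKM in ventral libraries, from only 15 to 43 fragments in a library. *Itgam*, the CD11b subunit of complement receptor 3, had means of 6.44 ± 1.11 and 7.64 ± 0.805 FPKM (SD, n = 4) in dorsal and ventral libraries (log2 ratio 0.25, limma adjusted p = 0.402). With only the 4 libraries of undisputed region, the median log2 ratio of the complement genes was -0.08, and under the header regions -0.29. Of 9 other complement genes tested, 1 was called, *C4b*, which encodes a component cleaved downstream of C1q. It was at 0.794 ± 0.262 FPKM in dorsal and 1.62 ± 0.224 FPKM in ventral libraries (SD, n = 4; limma adjusted p = 0.0443) and passed in 1 of the 8 fits that each left out a library.

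All 4 lysosomal and phagocytic genes had the higher mean in ventral libraries, with a median log2 ratio of 0.12. *Ctss* measured 30.5, 32.2, 29.9 and 27.8 FPKM in dorsal and 32.6, 34.5, 29.9 and 30.4 FPKM in ventral libraries, a log2 ratio of 0.08 (limma adjusted p = 0.654). *Mpeg1*, a pore-forming protein of phagosomes and the lowest of the group, measured 4.95, 4.72, 5.28 and 4.61 FPKM in dorsal and 4.98, 5.42, 5.39 and 5.08 FPKM in ventral libraries. Both genes were steady over all libraries, and their regions overlapped. *Laptm5*, a lysosomal membrane protein of blood-derived and microglial cells, was at 17.5, 13.5, 18.02 and 12.2 FPKM in dorsal and 20.7, 14.4, 20.6 and 18.5 FPKM in ventral libraries (log2 ratio 0.28, limma adjusted p = 0.420). *Cd68*, a lysosomal glycoprotein of phagocytes, was at 9.59, 8.08, 15.5 and 12.1 FPKM in dorsal and 10.7, 9.16, 17.0 and 13.6 FPKM in ventral libraries. In both regions the libraries numbered 2 and 4 were higher in *Cd68* than those numbered 1 and 3, and the log2 ratio between regions was 0.15 (limma adjusted p = 0.802). For the lysosomal members, the median log2 ratio was -0.04 in the 4 libraries of undisputed region and -0.18 under the header regions. Of 15 lysosomal genes that all cells use, 1 was called, *Gusb*, the enzyme beta-glucuronidase, at 5.11 ± 0.478 FPKM in dorsal and 7.08 ± 0.157 FPKM in ventral libraries (SD, n = 4; limma adjusted p = 0.0164). The median log2 ratio of that list was -0.01.

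Among the innate receptors and adaptors, 4 of 5 tested genes had the higher mean in ventral libraries, and the median log2 ratio was 0.14. The signaling adaptor *Tyrobp* (DAP12), which pairs with TREM2, measured 12.3, 11.8, 10.8 and 8.28 FPKM in dorsal and 14.1, 9.75, 15.7 and 12.6 FPKM in ventral libraries (log2 ratio 0.27, limma adjusted p = 0.481). The adaptor *Fcer1g*, the common gamma chain of Fc receptors, measured 10.3, 10.9, 13.6 and 10.5 FPKM in dorsal and 13.9, 10.96, 13.2 and 14.5 FPKM in ventral libraries (log2 ratio 0.21, limma adjusted p = 0.415). In both adaptors V3 was the lowest ventral library and lay within the dorsal range. *Trem2*, a lipid-sensing receptor, stood at 1.62 ± 0.283 FPKM in dorsal and 1.77 ± 0.515 FPKM in ventral libraries (SD, n = 4), from 27 to 54 fragments in a library. The log2 ratios of *Fcgr3*, a low-affinity IgG receptor, and *Ly86*, a partner of a Toll-like receptor homologue, were -0.02 and 0.03. *Cd14*, a coreceptor for bacterial lipopolysaccharide, lay at 0.493, 0.289, 0.354 and 0.0966 FPKM in dorsal and 0.412, 0.222, 0.525 and 0.534 FPKM in ventral libraries, from 2 to 13 fragments, too few to compare.

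Of the general leukocyte and myeloid genes, *Aif1*, which encodes the microglial stain target IBA1, measured 5.19, 4.01, 5.74 and 4.84 FPKM in dorsal and 3.58, 5.06, 5.29 and 3.73 FPKM in ventral libraries. The regions overlapped, and the direction depended on the measure, with a log2 ratio of -0.16 in FPKM and of 0.20 by edgeR on the fragments, of which a library held 28 to 62. *Ptprc*, the leukocyte antigen CD45, measured 0.984, 1.23, 1.015 and 0.870 FPKM in dorsal and 1.08, 1.04, 1.18 and 1.42 FPKM in ventral libraries. *Cd53*, a tetraspanin, had a log2 ratio of 0.13. By limma, the adjusted p was 0.681 for *Aif1*, 0.703 for *Ptprc* and 0.714 for *Cd53*.

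The homeostatic genes had a smaller median spread between libraries than the complement and lysosomal genes. Within a region, the SD of log2(FPKM + 1) had a median of 0.102 over the homeostatic, 0.197 over the complement, 0.167 over the lysosomal and 0.212 over the innate receptor genes, beside 0.146 over all members and 0.139 over all genes tested. These medians are descriptions of small groups with no test. The lysosomal group was split, with *Mpeg1* (0.062) and *Ctss* (0.088) low and *Laptm5* (0.246) and *Cd68* (0.369) high. This scale also reduces the SD of low genes. The median level was 4.39 FPKM in the homeostatic, 9.51 FPKM in the complement and 14.5 FPKM in the lysosomal group. The largest SDs belonged to *Cd68* (0.369), *Slco2b1* (0.339) and *C1qa* (0.325), and the smallest to *Mpeg1* (0.062) and *Sall1* (0.069). *Cd68* had 108 to 201 fragments in a library and *C1qa* 15 to 43.

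**Figure D3:**
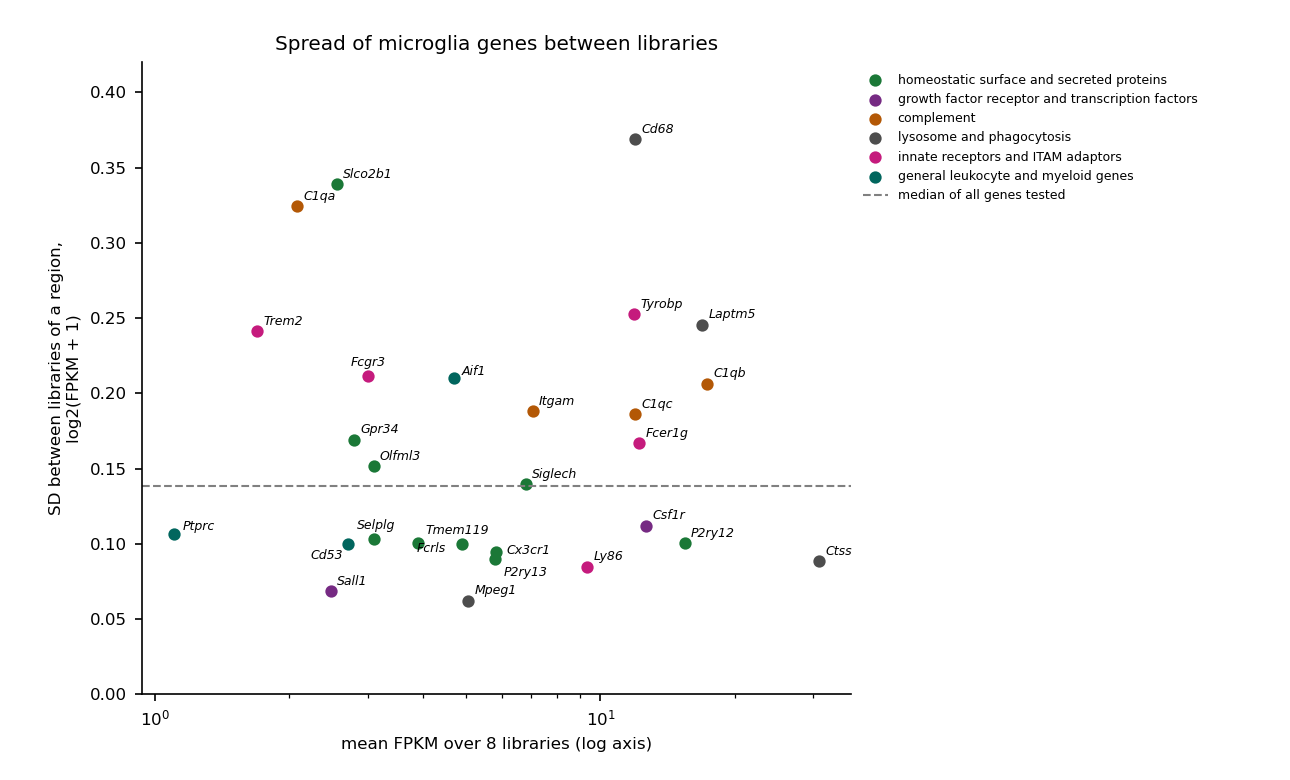
Spread of each member between the libraries of a region, as the SD of log2(FPKM + 1), against its mean FPKM over the 8 libraries (log axis), with the median of all genes tested as a dashed line. Most homeostatic genes lie near 0.1, and *Cd68*, *Slco2b1* and *C1qa* lie highest.

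Part of this spread was shared by many members. Within the dorsal libraries, V2 was the lowest for 13 of the 28 members and D2 the highest for 13. Within the ventral libraries, V3 was the lowest for 13 and D4 the highest for 11. Over all 8 libraries, which adds the difference between regions, V2 was the lowest for 12 members and D4 the highest for 10. How often these libraries were the lowest or highest over all genes was not computed. The median deviation of the members from their 8-library mean, on log2(FPKM + 1), was -0.13 in V2, 0.12 in D3 and 0.10 in D4, and lay between -0.05 and 0.05 in the other libraries. Over all genes tested the corresponding medians stayed between -0.01 and 0.01. Within both regions, the 2 libraries headed D were above the 2 headed V for 4 members, *C1qb*, *C1qc*, *Laptm5* and *Ly86* (background 4.18%), and the reverse held for 0 members (background 3.61%). What the header letters stand for in these libraries is not given.

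**Figure D4:**
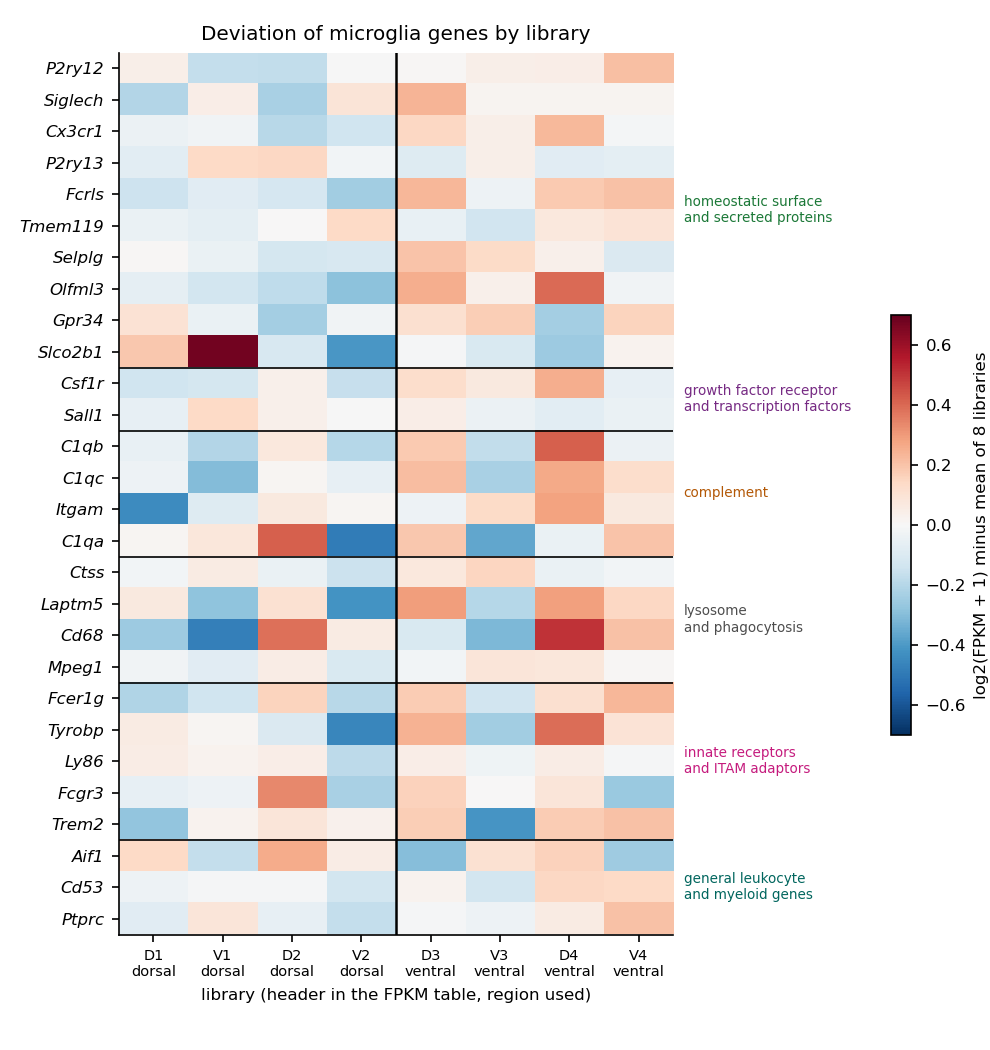
Deviation of each member in each library from its mean over the 8 libraries, on log2(FPKM + 1), with dorsal libraries left of the vertical line and members grouped by role. Dorsal V2 is mostly blue (lower) and ventral D3 and D4 mostly red (higher), with the strongest colors in *Slco2b1*, *Cd68*, *C1qa* and *Olfml3*.

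Other genes of the same cells and of related cells were compared in the same fit. Of 17 further microglia genes tested, 0 were called, and their median log2 ratio was 0.07. Of 7 tested ligands of microglial receptors 0 were called by limma, and *Cd200*, a neuronal protein that restrains microglia, came nearest at 93.9 ± 6.90 against 114 ± 5.63 FPKM (SD, n = 4; limma adjusted p = 0.0667). By edgeR its adjusted p was 0.0092, and it was the 1 ligand called. Of 12 genes of activated or disease-associated microglia, 5 could be tested and 1 was called. This was *Igf1*, a growth factor that neurons also make, at 4.60 ± 0.580 FPKM in dorsal and 8.19 ± 1.46 FPKM in ventral libraries (SD, n = 4; limma adjusted p = 0.0140). It remained called in all 8 fits that left out a library, but its log2 ratio was 0.06 under the header regions. Of the 5 tested genes of that list, 2 had the higher mean in ventral and 3 in dorsal libraries, with a median log2 ratio of -0.06. Of 13 inflammatory genes, 3 reached the level for testing, 0 were called, and *Ccl4* was listed at 0 in every library.

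Macrophages outside the tissue proper and blood cells share several of the members. Of 10 genes of perivascular and meningeal macrophages, 4 were tested and 0 called, and their summed level was 8.44 to 11.3 FPKM in dorsal and 10.2 to 12.5 FPKM in ventral libraries. Their defining marker *Mrc1*, the mannose receptor, was at 2.01 ± 0.444 and 2.49 ± 0.373 FPKM (SD, n = 4; limma adjusted p = 0.461). Of 14 blood cell genes, 3 were tested and 0 called, at summed levels of 13.7 to 20.1 FPKM in dorsal and 15.1 to 23.5 FPKM in ventral libraries. *Lyz2*, a lysozyme of myeloid cells that microglia can also express, was at 6.69 ± 1.12 FPKM in dorsal and 9.50 ± 1.31 FPKM in ventral libraries, without overlap (SD, n = 4; adjusted p = 0.0707 by limma and 0.0272 by edgeR). *Nkg7*, a gene of cytotoxic lymphocytes, was listed at 0 throughout, and the monocyte receptor *Ccr2* was at 0.123 FPKM in dorsal and 0.147 FPKM in ventral libraries. Other glial lists had the higher mean in ventral libraries in 4 of 4 genes of oligodendrocyte precursors (median log2 ratio 0.32) and in 4 of 6 genes of astrocytes (0.13). None of these was called by limma, and edgeR called 1 in each list. The higher mean was in dorsal libraries in 4 of 5 endothelial genes (median log2 ratio -0.30) and 5 of 6 neuronal genes (-0.13). The same held for 3 of 5 genes of mural cells, the contractile cells of vessels (-0.07). In these 3 lists limma called 1 gene, the mural *Vtn*, higher in ventral (adjusted p = 0.0229, and 0.0799 by edgeR). For the choroid plexus only 1 gene was tested (0.15, not called). The part of these cells, of myelin and of the leptomeninges in the values of the microglia genes was not tested.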

How the data were processed

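The authors made and amplified cDNA from 120 ng of total RNA per sample. They aligned paired-end fragments with TopHat2 2.0.8 to Ensembl release 73 (GRCm38) and quantified genes with Cuffdiff. The deposited tables used here give FPKM, scaled between libraries by the authors, and estimated counts of fragments per gene and library, which were rounded to whole numbers for edgeR and DESeq2. The estimated counts were matched to libraries by identical FPKM in all 38553 genes. The authors' columns of fold changes, p-values and q-values were not used, nor were 2 columns of scaled fragments. Genes flagged in the deposited comparison for too few or too many alignments were left out. Values were transformed to log2(FPKM + 1), and the 13674 genes with a mean of at least 1 FPKM were compared, unpaired, by limma with its trend option (version 3.58.1, R 4.3.3). This scale understates changes of low genes. P-values measure the spread between 4 pools per region, and they do not use the pairing of dorsal and ventral pools by group of mice. A gene was called at an adjusted p under 0.05 (Benjamini-Hochberg) and a difference in mean FPKM of at least 20%. The alternatives used edgeR 4.0.16 (quasi-likelihood), DESeq2 1.42.0, other filters, constants and scalings, other readings of the regions, 1 library left out at a time and, added after seeing the data, a replicate block. The fit was tested on simulated data. Python 3.11.15, pandas 2.3.3, NumPy 2.4.6 and matplotlib 3.10.9 were used.

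All 30 members are named. Members with the largest change in each direction, those whose regions do not overlap and the highest and lowest of each role group are given in every library, as are a few others chosen after their values were seen. From the other lists, called genes and defining genes are named, and the ligands were added outside that rule. Values of 1 listed gene are not reported here. The members and lists were chosen with earlier results of these data known. Gene positions are those of GENCODE M21 (GRCm38).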

Additional observations from a re-analysis of the deposited data

Results flagged for a closer look

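There were 5 values that stood far from the other 3 libraries of their region by Dixon's test, out of 60 groups of 4 libraries, where chance alone gives about 1 in 20, or 3. *P2ry13* was at 5.99 FPKM in ventral V3, above the 5.39 to 5.49 FPKM of the other ventral libraries. *Gpr34* was at 2.20 FPKM in ventral D4, below 3.08 to 3.25 FPKM in the others. *Siglech* was at 8.15 FPKM in ventral D3, above 6.86 to 6.88 FPKM. *Trem2* was at 1.004 FPKM in ventral V3, below 2.002 to 2.074 FPKM, and *Ly86* was at 8.11 FPKM in dorsal V2, below 9.51 to 9.70 FPKM. They fall in 4 libraries, with V3 the only library to hold 2 of them.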

How the results depend on the processing

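The count of called members was 0 by limma under each filter, constant and scaling tried, 0 to 1 when a library was left out (*Fcrls* without V3), 2 by edgeR (*Fcrls* and *Olfml3*) and 1 by DESeq2 (*Olfml3*). The number of members whose regions did not overlap, 3 of 28 as reported (11.1% of all genes), was 1 of 15 with a minimum of 5 FPKM (11.98%), 1 after rescaling to equal total FPKM (9.87%), 1 under the header regions (3.31%), 10 of 29 in the 4 libraries of undisputed region (41.03%) and 3 to 8 with a library left out (6 without D2, 8 without V3 and 5 without V4, where 14.7%, 16.9% and 15.5% of all genes did so). Fewer libraries per region raise these shares. The median log2 ratio of the members was -0.091 under the header regions and 0.038 in the 4 libraries. Under the header regions the medians were 0.034 for the homeostatic, -0.059 for the growth factor receptor and transcription factor, -0.29 for the complement, -0.18 for the lysosomal, -0.12 for the innate receptor and -0.081 for the leukocyte genes. In the 4 libraries they were -0.078 for complement, -0.036 for lysosomal and -0.047 for innate receptor genes, and with a minimum of 5 FPKM that of the growth factor receptor and transcription factor group, then *Csf1r* alone, was 0.21. None of the members that changed direction was called there. Under the header regions 19 did so, with log2 ratios of -0.089 for *Cx3cr1*, 0.053 for *P2ry13*, 0.022 for *Tmem119*, -0.093 for *Fcrls*, -0.29 for *Olfml3*, -0.085 for *Selplg*, 0.20 for *Slco2b1*, -0.15 for *Csf1r*, 0.035 for *Sall1*, -0.34 for *C1qb*, -0.25 for *C1qc*, -0.30 for *Cd68*, -0.39 for *Laptm5*, -0.054 for *Mpeg1*, -0.12 for *Trem2*, -0.32 for *Tyrobp*, -0.12 for *Fcer1g*, -0.11 for *Ly86* and -0.081 for *Cd53*. In the 4 libraries 7 did so, at 0.0087 for *Tmem119*, -0.12 for *C1qb*, -0.034 for *C1qc*, -0.14 for *Cd68*, -0.11 for *Laptm5*, -0.047 for *Tyrobp* and -0.078 for *Ly86*. Rescaling gave 0.036 for *Tmem119* and 0.037 for *Fcgr3*. On fragments, edgeR gave 0.024 for *Slco2b1*, 0.012 for *Fcgr3* and 0.20 for *Aif1*, and DESeq2 gave 0.026, 0.0079 and 0.20. With a library left out, 22 of 28 members held their direction in all 8 fits, and the others ranged from -0.24 to 0.19 (*C1qa*), -0.022 to 0.34 (*Cd68*), -0.11 to 0.15 (*Fcgr3*), -0.029 to 0.053 (*Ly86*), -0.50 to 0.014 (*Slco2b1*) and -0.055 to 0.045 (*Tmem119*). The cause of these changes was not tested.

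The study compared dorsal with ventral tissue of the same 4 groups of mice, but the labels do not say which mice a library came from. The main, unpaired fit therefore leaves this pairing out. The fragment table numbers the libraries of each region, and a fit with these numbers as a replicate block, chosen after seeing the data, called 0 members and 577 genes in all (492 without the block), with the lowest adjusted p among members 0.118 (*Olfml3*). The numbers were not taken as pairs, since only 2 of 4 pairs deviated together with a correlation over 0.1 and 2 of 4 dorsal libraries were closest to their own number. For *Cd68*, the adjusted p with the block was 0.217. Members with few fragments (*Cd14*, *Irf8*, *C1qa*, *Trem2*, *Aif1* and *Ptprc* among them) are limited by counting, and 4 pools per region limit every member.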
